A study of Mus musculus with 23 samples.

Results

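The 10 genes described here encode core proteins of the adherens junction and the desmosome of the mouse small intestine, and Cdh17, another cadherin of its epithelium. They were chosen by name, out of 19215 entries of an RNA-seq table, as the epithelial cadherins Cdh1 and Cdh17, the catenins Ctnnb1, Ctnna1, Ctnnd1 and Jup, the desmosomal cadherins Dsg2 and Dsc2, and the plaque proteins Dsp and Pkp2. All 10 were found by their NCBI Gene number and all 10 passed the filter on low values. The samples were 23 RNA-seq libraries of the small intestine of male ICR mice, an outbred stock. The mice had all received busulfan at 40 mg/kg at 3 weeks of age, and no group without busulfan was analysed here. They were then given saline (Sa) or fecal microbiota transplantation (FMT). The donors of Con-FMT had been given the vehicle, and those of A10-FMT and A100-FMT alginate oligosaccharides (AOS) at 10 mg/kg and 100 mg/kg. The luminal contents of each donor group were pooled, so the recipients of an FMT group shared 1 inoculum. The sample codes divide the libraries into set 1 and set 2, and the labels do not say what the sets are. Each treatment had 3 libraries in each set, except Sa of set 1 with 2. The sources used here do not say whether each library came from its own mouse, nor whether the sets hold different mice. A p-value therefore measures the spread between these libraries, and the tests between the sets take all libraries as independent.

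Adherens junctions and desmosomes hold neighbouring epithelial cells together. In both, the outer parts of cadherins bind those of the next cell, while their tails bind armadillo proteins (β-catenin, p120-catenin, plakoglobin and plakophilins) that reach the cytoskeleton through α-catenin and actin at the adherens junction, or through desmoplakin and keratin filaments at the desmosome. β-catenin also acts in the nucleus with TCF factors in the Wnt pathway, which maintains the stem cells of the intestinal crypt.

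Values are FPKM, which are scaled to transcript length and library size, and no read numbers were used. A Sa sample of set 1 carries replicate number 3 in its title, while its description names another column of the table. The title decided which column was used here, and results that rest on Sa of set 1 are also given with the column of the description and without this library. Its log2 values correlated at 0.944 to 0.965 with those of the other libraries, which correlated at 0.968 to 0.991 with each other. The deviation of its genes from the median library followed their GC content, with a Spearman coefficient of 0.709 across 10527 genes. In the other libraries this coefficient was -0.227 to 0.223. With transcript length the coefficient of this library was -0.451, just outside the -0.422 to 0.381 of the others. The RNA was mostly that of epithelium. Markers of epithelium summed to 10060 to 14832 FPKM per library, whereas 7 smooth muscle markers summed to 7.18 to 12.1 FPKM, 9 leukocyte markers to 3.08 to 14.2 FPKM, and fibroblast, endothelial, and glial and neuronal markers to under 1 FPKM in each library. The 4 erythroid markers summed to 0.21 to 40.4 FPKM, with 4.53 to 40.4 FPKM in Con-FMT and 0.94 to 2.85 FPKM in Sa of set 2. Acta2, Myh11, Col1a1, Cdh5, Kdr and Gfap did not exceed 0.14 FPKM in a library.

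The genes differ in base composition although some encode close relatives. Jup encodes plakoglobin, the armadillo protein that is shared by adherens junction and desmosome, and it is a paralog of Ctnnb1. Of 743 aligned residues of their proteins, 511 are identical (68.8%). G or C filled the third codon position in 76.8% of the codons of Jup but in 52.0% of those of Ctnnb1. The following stretches of 40 codons show this difference in base composition. They were selected as the ungapped window with the largest difference at the third codon position among 308 windows with at least 80% identical residues. G and C at the third codon position are in capitals, and the sequences are of GENCODE M21 on GRCm38.
Ctnnb1 (chr9:120951091-120951329, plus strand, exons 4 and 5, codons 147 to 186): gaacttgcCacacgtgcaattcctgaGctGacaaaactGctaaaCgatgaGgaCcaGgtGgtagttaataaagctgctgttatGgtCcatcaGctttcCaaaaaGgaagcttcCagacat
Jup (chr11:100383183-100383451, minus strand, exons 3 and 4, codons 138 to 177): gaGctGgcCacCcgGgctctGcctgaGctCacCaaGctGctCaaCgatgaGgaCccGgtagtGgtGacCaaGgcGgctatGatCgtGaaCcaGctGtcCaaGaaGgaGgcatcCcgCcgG
The stretches share 33 of 40 residues and 87 of 120 bases. The Ctnnb1 stretch has G or C at the third position of 15 codons and the Jup stretch of 34. Over the whole transcript, GC content was 58.8% for Jup, above that of 92.3% of the tested genes, and 50.3% for Ctnnb1. It was lowest for Dsc2, with 42.5%, and 51.8% for Dsp, the second highest of the 10.

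Cdh17 and the genes of the adherens junction were higher than those particular to the desmosome. Cdh17 (chr4:11758157-11817905 on GRCm38), a cadherin of the intestinal epithelium that does not bind β-catenin, was highest with 484 ± 44.3 FPKM (mean ± SD, n = 23). Cdh1 (E-cadherin, chr8:106603350-106670247) with 244 ± 15.5 FPKM and Ctnnb1 (β-catenin, chr9:120933400-120960507) with 242 ± 14.9 FPKM did not differ beyond their spread. Ctnna1 (α-catenin, on chromosome 18), which links the complex to actin, came next with 139.7 ± 7.49 FPKM. Jup (chr11:100368856-100397839) with 116 ± 9.61 FPKM and Ctnnd1 (p120-catenin, chr2:84587096-84658977, which keeps cadherins at the cell surface) with 111 ± 6.84 FPKM overlapped. The desmosomal genes were lower. Dsp (desmoplakin, chr13:38151294-38198577) had 59.7 ± 6.77, Dsc2 (desmocollin) 58.2 ± 6.99 and Dsg2 (desmoglein) 56.9 ± 6.88 FPKM, which lay within their spread of each other. Pkp2 (plakophilin, chr16:16213345-16272712), an armadillo protein of the desmosomal plaque, was lowest with 29.9 ± 1.61 FPKM.

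**Figure D1:**
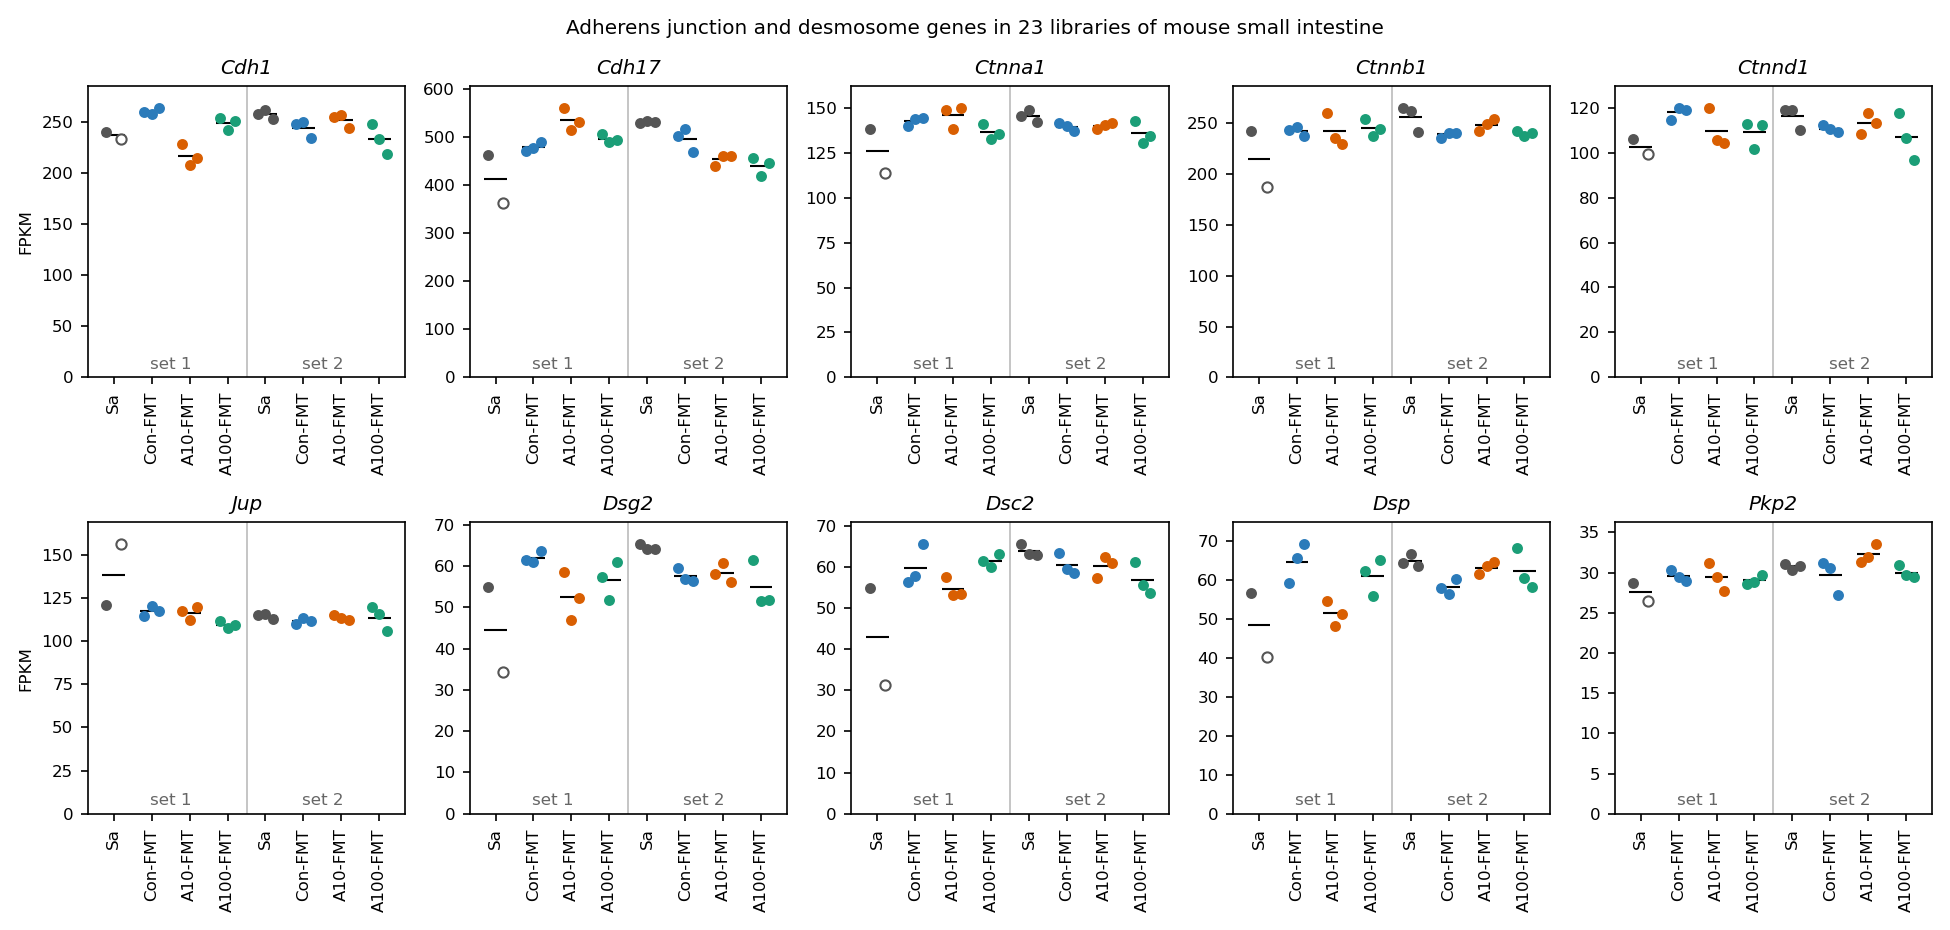
FPKM of each of the 10 genes (vertical axis, from 0) in the 8 groups (horizontal axis). Each point is 1 library, the short lines are group means and the open circle is Sa replicate 3 of set 1. That library was the lowest of 23 for 7 genes and the highest for Jup. Of all 11337 tested genes, it was the lowest for 36.0% and the highest for 27.5%.

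The 10 genes varied less than the median tested gene. The coefficient of variation over 23 libraries was 5.36% for Ctnna1 to 12.1% for Dsg2, against a median of 12.3% over 11337 tested genes. For Dsg2, Dsc2 and Dsp, 48.4%, 47.9% and 42.7% of the tested genes had a lower coefficient, so these lay near the median. By mean FPKM the 10 genes ranked from 203 (Cdh17) to 3140 (Pkp2), and the spread was not compared with genes of like level. Without Sa replicate 3 of set 1 it was 3.54% for Jup to 8.90% for Dsp, against a median of 9.72%. The largest ratio between the highest and the lowest of the 8 group means was 1.48, for Dsc2. A moderated F test across the 8 groups (limma, Benjamini-Hochberg over all tested genes) called 4 of the 10 genes, where it called 33.8% of the tested genes. They were Cdh17 (adjusted p = 0.00745), Cdh1 (adjusted p = 0.0105), Dsp (adjusted p = 0.0234) and Dsc2 (adjusted p = 0.0453). Leaving out 1 library of a group of 3 gave 2 or 3 genes, and the share of all tested genes in those fits is not given here. Leaving out 1 of the 2 Sa libraries of set 1 left 1 library in that group, so those counts are not read.

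Cdh1, the cadherin of the epithelial adherens junction, was lowest in A10-FMT of set 1. In set 1 it measured 239.9 and 233 FPKM in Sa, 259.7, 258 and 264 in Con-FMT libraries, 228, 208 and 215 in A10-FMT libraries, and 254, 242 and 251 in A100-FMT libraries. In set 2 it measured 258, 262 and 252 FPKM in Sa, 247, 249.5 and 234 in Con-FMT libraries, 254, 257 and 244 in A10-FMT libraries, and 248, 234 and 219 in A100-FMT libraries. The 3 A10-FMT libraries of set 1 were below all libraries of the other groups of set 1, while in set 2 A10-FMT lay among Sa and Con-FMT. A10-FMT was lower than Con-FMT in set 1 by a log2 difference of -0.26 (SE 0.0491, limma adjusted p = 0.00206), with group means of 217 ± 10.3 and 260.5 ± 3.10 FPKM (SD, n = 3 each). In this comparison 2 of the 10 genes were called, both lower, where 16.7% of the tested genes were called and 11.5% were called lower. The same difference in set 2 was 0.05 (SE 0.0491, adjusted p = 0.777). The effects of the sets differed by 0.31 (SE 0.0694, adjusted p = 0.00512), 1 of 3 genes so called where 20.8% of the tested genes were called. The difference in set 1 passed the threshold in all 32 alternatives, with adjusted p from 0.000617 to 0.0275 and log2 differences of -0.32 to -0.14. The difference between the sets was lost with trimmed-mean scaling (0.18, adjusted p = 0.103) and with adjustment for GC content and length (0.13, adjusted p = 0.111), and its adjusted p ran from 0.00145 to 0.111 over the alternatives. Without such scaling, the median tested gene was itself higher by 0.13 in the difference between the sets and had a log2 difference of -0.08 in A10-FMT of set 1.

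Cdh17 took another course. In set 1 it measured 463 and 363 FPKM in Sa, 472, 479 and 489.9 in Con-FMT libraries, 562, 516 and 532 in A10-FMT libraries, and 508, 489 and 494 in A100-FMT libraries. In set 2 it measured 529, 535 and 533 FPKM in Sa, 503, 518 and 469.8 in Con-FMT libraries, 440.5, 461 and 462 in A10-FMT libraries, and 456, 419 and 447 in A100-FMT libraries. A10-FMT was thus above all other groups of set 1 and below Sa and Con-FMT of set 2, without overlap in either. Against Sa, A10-FMT was higher in set 1 by 0.39 (SE 0.0749, limma adjusted p = 0.00190), in a comparison where 4 of the 10 genes and 32% of the tested genes were called. This call held with the column of the description (0.23, adjusted p = 0.00164), without Sa replicate 3 (0.21, adjusted p = 0.0432) and with adjustment for GC content and length (0.22, adjusted p = 0.00355). It was lost in 2 of 32 alternatives, with the groups compared alone and with array quality weights (adjusted p 0.314 and 0.553, the highest of a range that began at 9.39e-07). The array quality weight was 0.0859 for both Sa libraries of set 1, so these weights did not tell replicate 3 from the other. In set 2 the log2 difference of A10-FMT from Sa was -0.23 and did not pass the threshold (SE 0.067, adjusted p = 0.134). The effects of the sets differed by -0.61 (SE 0.1, adjusted p = 0.000629), in a comparison where 2 of the 10 genes and 28.4% of the tested genes were called. This difference between the sets was called in 31 of 32 alternatives (adjusted p 3.46e-07 to 0.101, the highest with array quality weights). In set 2 A100-FMT was below Sa as well (-0.27, SE 0.067, adjusted p = 0.109). Against Con-FMT, Cdh17 in A10-FMT was not called in either set (0.16 and -0.13, adjusted p = 0.112 and 0.473), while the sets differed by -0.29 (SE 0.0947, adjusted p = 0.0394), called in 21 of 32 alternatives (adjusted p 0.000109 to 0.315). That call was lost without replicate 1 or 2 of Con-FMT in either set, without replicate 1 or 3 of A10-FMT in set 1 and without any A10-FMT library of set 2. Some alternatives did call Cdh17 higher in A10-FMT than in Con-FMT of set 1. They were the column of the description (0.16, limma adjusted p = 0.00943), trimmed-mean scaling (0.24, adjusted p = 0.0145) and array quality weights (0.17, adjusted p = 0.0163). These settings did not call it in set 2.

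Each library thus held its own ratio of Cdh17 to Cdh1, a measure chosen after the values were seen and not tested. It was 2.46 to 2.48 in A10-FMT of set 1, 1.73 to 2.11 in 19 other libraries and 1.56 in Sa replicate 3 of set 1. In set 2 A10-FMT had 1.73 to 1.90 and Sa 2.04 to 2.11. The ratio of Ctnna1 to Cdh1 was 0.654 to 0.699 in A10-FMT of set 1 and 0.540 to 0.615 in the same 19 libraries. That of Ctnnb1 to Cdh1 was 1.07 to 1.14 in A10-FMT of set 1 and 0.902 to 1.10 in the others, so these ranges overlapped.

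**Figure D2:**
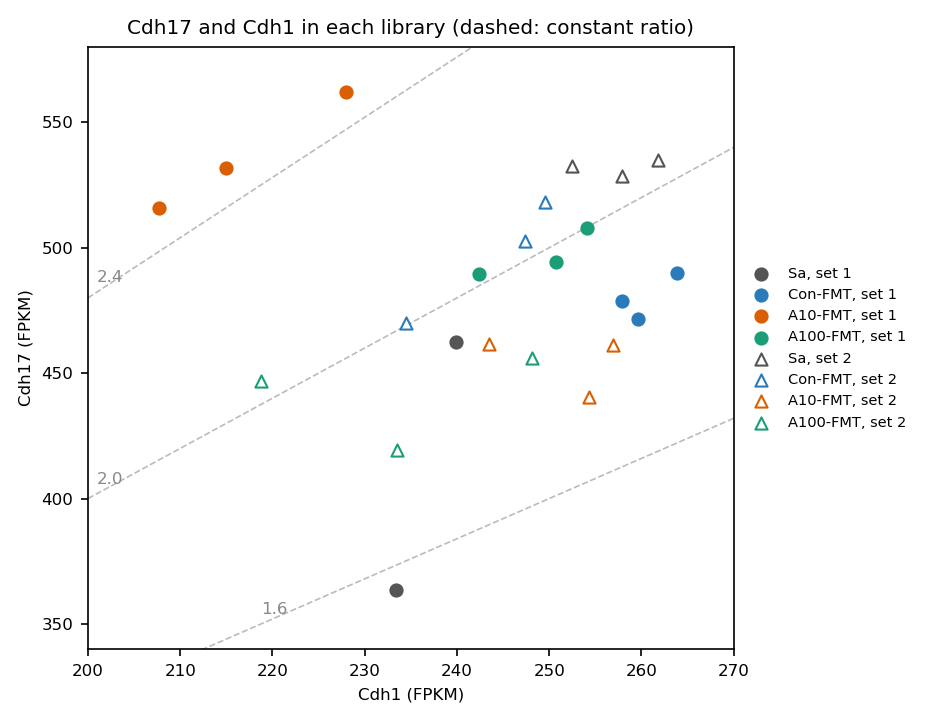
Cdh17 against Cdh1 in FPKM, with 1 point per library, filled circles for set 1, open triangles for set 2 and dashed lines of constant ratio (1.6, 2.0 and 2.4). The 3 A10-FMT libraries of set 1 lie above the line of ratio 2.4 with ratios of 2.46 to 2.48, apart from all other libraries.

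Summed markers of enterocytes and of crypt cells did not overlap between A10-FMT and Con-FMT libraries in either set. The crypt sums of set 2 nearly touched, however, at 930.86 FPKM in A10-FMT and 928.73 FPKM in Con-FMT. The summed level of 10 absorptive enterocyte markers was 11496 to 14274 FPKM in A10-FMT of set 1 against 7041 to 8148 FPKM in Con-FMT of set 1, and 4632 to 6421 FPKM in A10-FMT of set 2 against 7461 to 9368 FPKM in Con-FMT of set 2. In Sa it was 5934 to 7809 FPKM in set 1 and 7748 to 8950.4 FPKM in set 2. The 10 markers of crypt and proliferating cells summed to 665 to 715 FPKM in A10-FMT of set 1 against 871 to 940.1 FPKM in Con-FMT, and to 931 to 1022 FPKM against 799 to 929 FPKM in set 2. In Sa they summed to 711 to 963 FPKM in set 1 and 762 to 895 FPKM in set 2. Between A10-FMT and Con-FMT of set 1, 7 of 10 enterocyte markers were called higher, beside 5.2% of all tested genes, and 6 of 10 crypt markers lower, beside 11.5%. The 7 goblet cell markers summed to 7748 to 8879 FPKM in A10-FMT and 6612 to 8312 FPKM in Con-FMT of set 1, which overlapped. In set 2 they summed to 6065 to 7125 FPKM in A10-FMT and 7507 to 8122 FPKM in Con-FMT. The 6 Paneth cell markers summed to 6047 to 8284 FPKM in A100-FMT of set 1. That was below Sa (14089 to 16059 FPKM) and Con-FMT (12335 to 16656 FPKM) of set 1. In A10-FMT of set 1 the Paneth cell markers summed to 9603 to 15520 FPKM, which overlapped Con-FMT. In set 2 they summed to 4824 to 8237 FPKM in Sa, 9173 to 10483 FPKM in Con-FMT, 9539.7 to 15330.5 FPKM in A10-FMT and 7037 to 8886 FPKM in A100-FMT. None of these lists had a gene at 0 in all libraries. The part of this in the levels of the 10 genes was not tested, and fewer cells of a type cannot be told apart from less RNA per cell in these bulk samples.

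Over the 22 libraries without Sa replicate 3 of set 1, each catenin had a lower coefficient of variation than Cdh1 or Cdh17, whereas over all 23 that of Jup (8.29%) was above that of Cdh1 (6.35%). Ctnnb1, which binds the tail of Cdh1, ran from 230.0 to 266 FPKM in 22 libraries and measured 188 FPKM in Sa replicate 3 of set 1. Ctnna1 ran from 131 to 150.3 FPKM with 114 FPKM in that library, and Ctnnd1 from 96.6 to 120.1 FPKM with 99.3 FPKM there. Jup turned the other way, as its 22 libraries lay between 106 and 121 FPKM and Sa replicate 3 of set 1 measured 156 FPKM. The ratio of Jup to Ctnnb1 was accordingly 0.832 in that library and 0.433 to 0.521 in the others. With the column of the description, this sample had 114 FPKM of Jup and 238 FPKM of Ctnnb1, within the range of the rest.

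**Figure D3:**
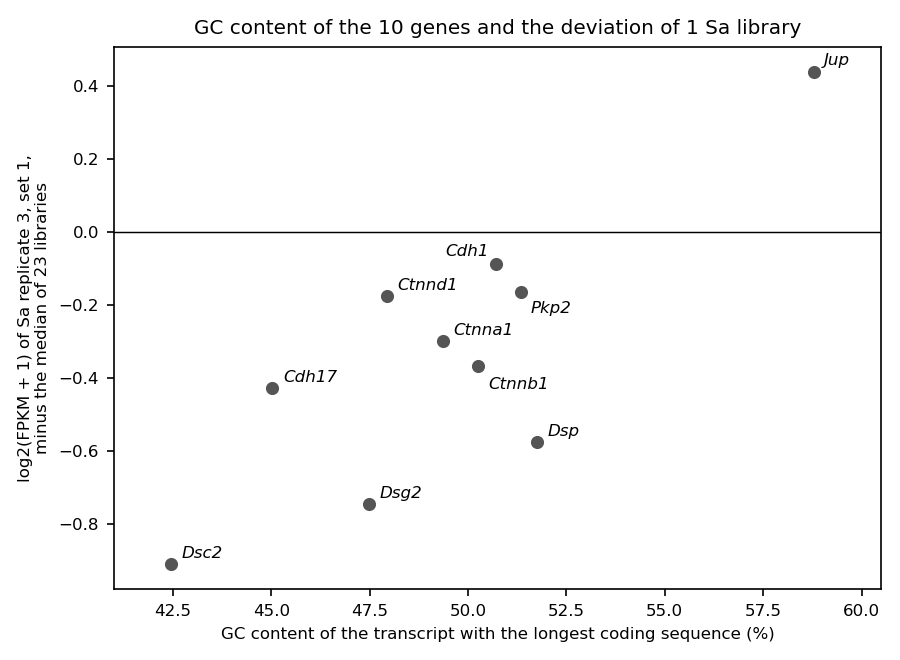
Log2(FPKM + 1) of the 10 genes in Sa replicate 3 of set 1 minus the median of the 23 libraries (vertical axis) against the GC content of the transcript (horizontal axis, percent), with 1 point per gene. Dsc2, lowest in GC content, deviated by -0.91 and Jup, highest, by 0.44, but Dsp at 51.8% deviated by -0.58, further than Cdh17 at 45.0% (-0.43), and Dsg2 at 47.5% by -0.75 against -0.17 for Ctnnd1 at 47.9%.

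Of the 10 genes, Dsc2, Dsg2 and Dsp lay furthest below the other libraries in Sa replicate 3 of set 1. Dsc2 measured 54.8 and 31.2 FPKM in Sa of set 1, 56.3, 57.7 and 65.5 in Con-FMT libraries, 57.4, 53.2 and 53.4 in A10-FMT libraries, and 61.3, 59.9 and 63.1 in A100-FMT libraries. Dsg2 measured 54.9 and 34.3 FPKM in Sa of set 1, 61.5, 61.0 and 63.6 in Con-FMT libraries, 58.6, 46.9 and 52.3 in A10-FMT libraries, and 57.3, 51.8 and 61.0 in A100-FMT libraries. Both desmosomal cadherins, which lie on chromosome 18, had 1 Sa library near the FMT groups and 1 far below them. In set 2 the Sa libraries were instead at the upper end, with 65.5, 63.0 and 62.8 FPKM of Dsc2 and 65.3, 64.1 and 64.1 FPKM of Dsg2. Dsc2 lay between 53.5 and 63.4 FPKM in the FMT groups of set 2, and Dsg2 between 51.5 and 61.5 FPKM. The ratio of Dsc2 to Dsg2 was 0.910 in Sa replicate 3 and 0.997 in Sa replicate 1 of set 1.

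Dsp, which ties the plaque to keratin filaments, measured 56.65 and 40.2 FPKM in Sa of set 1, 59.1, 65.6 and 69.2 in Con-FMT libraries, 54.55, 48.2 and 51.3 in A10-FMT libraries, and 62.2, 55.8 and 65.0 in A100-FMT libraries. In set 2 it measured 64.4, 66.6 and 63.6 FPKM in Sa, 57.8, 56.3 and 60.2 in Con-FMT libraries, 61.4, 63.5 and 64.45 in A10-FMT libraries, and 68.2, 60.4 and 58.05 in A100-FMT libraries. In Dsp the A10-FMT libraries of set 1 were below all Con-FMT libraries, and those of set 2 were above all Con-FMT libraries. The difference in set 1 was -0.32 (SE 0.0961, limma adjusted p = 0.0283), that in set 2 0.12 (SE 0.0961, adjusted p = 0.679), and the sets differed by 0.44 (SE 0.136, adjusted p = 0.0287). The call in set 1 was lost without Con-FMT replicate 2 or 3 or A10-FMT replicate 2 or 3 of set 1 (adjusted p 0.0780 to 0.104), with trimmed-mean scaling (-0.24, adjusted p = 0.0733) and with adjustment for GC content and length (-0.12, adjusted p = 0.218). Its adjusted p ran from 0.00214 to 0.218 over 32 alternatives. The difference between the sets was called in 23 of 32 (adjusted p 0.00172 to 0.203). It was lost with trimmed-mean scaling (0.31, adjusted p = 0.0924), with adjustment for GC content and length (0.17, adjusted p = 0.203), without any 1 of the same 4 libraries of set 1, and without replicate 2 of Con-FMT or replicate 2 or 3 of A10-FMT of set 2. Dsg2 was also below all Con-FMT libraries in A10-FMT of set 1 (-0.24, SE 0.119, adjusted p = 0.177) but was not called. It was called with the column of the description (-0.24, limma adjusted p = 0.0200) and with array quality weights (-0.22, adjusted p = 0.0463). With trimmed-mean scaling it was not (-0.16, adjusted p = 0.385). In all, 3 of the 10 genes lay wholly below and 1 wholly above Con-FMT there, where 29.8% and 12.2% of the tested genes did. Pkp2 stayed between 26.5 and 33.5 FPKM in all 23 libraries and was called in no comparison within a set.

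Set against Sa of set 1, several junction genes were higher after FMT and Jup was lower. In Con-FMT 5 genes were called higher, namely Cdh17 (0.23), Ctnna1 (0.18), Dsp (0.43), Dsc2 (0.52) and Dsg2 (0.50, all log2 differences), and Jup was called lower (-0.22), with limma adjusted p from 0.0259 to 0.0459. There 26.9% of the tested genes were called, 17.7% higher and 9.17% lower. In A10-FMT Cdh17 (0.39), Ctnna1 (0.21) and Dsc2 (0.39) were called higher and Jup lower (-0.24), with adjusted p from 0.00190 to 0.0389, where 13.6% of the tested genes were called higher and 18.4% lower. In A100-FMT Cdh17 (0.28), Dsp (0.34), Dsc2 (0.56) and Dsg2 (0.37) were called higher and Jup lower (-0.32), with adjusted p from 0.00869 to 0.0379, where 35.2% of the tested genes were called, 22% higher and 13.1% lower. The median log2 difference of the 10 genes was 0.19, 0.14 and 0.16 in the 3 comparisons, against 0.05, -0.01 and 0.05 for all tested genes.

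Except for Cdh17 in A10-FMT, these calls rested on 1 Sa library. With the column of the description, limma called 0 of the 10 genes after Con-FMT, 2 after A10-FMT and 0 after A100-FMT, where 0.397%, 33.8% and 8.51% of the tested genes were called. The 2 genes were Cdh17 (0.23) and Cdh1 (-0.16, adjusted p = 0.0201). Without Sa replicate 3, the calls were 0, 1 and 0, the 1 being Cdh17, where 0.00882%, 8.13% and 0.238% of the tested genes were called. The log2 difference of Dsc2 fell to 0.12, -0.00372 and 0.16 without that library, and that of Jup to -0.04, -0.05 and -0.14. Some calls also needed FMT libraries. In Con-FMT, those of Cdh17, Ctnna1 and Jup were lost without any 1 Con-FMT library, and those of Dsg2, Dsc2 and Dsp without replicate 1 or 3. In the values without Sa replicate 3, the remaining Sa library was assumed to vary like the other groups. With adjustment for GC content and length, 0, 4 and 3 of the genes were called, where 4.84%, 31.8% and 23.8% of the tested genes were called, the 4 being Cdh17 (0.22), Ctnna1 (0.21), Ctnnb1 (0.21) and Pkp2 (0.17), and the 3 Dsp (0.21), Dsc2 (0.14) and Jup (-0.20).

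**Figure D4:**
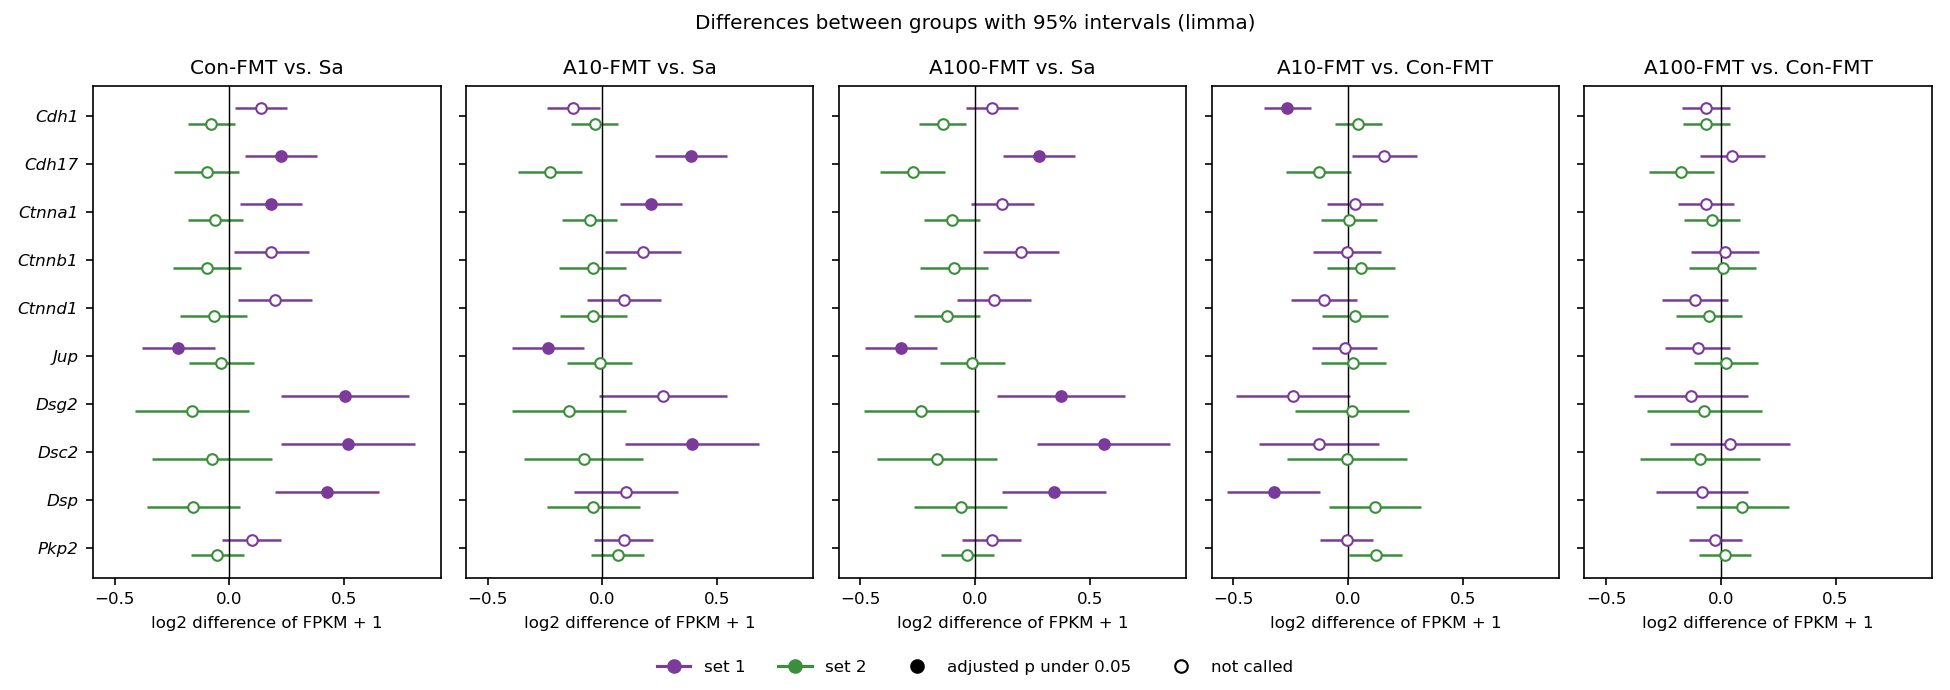
Log2 differences of FPKM + 1 (horizontal axis) with 95% intervals for the 10 genes in 5 comparisons, for set 1 (purple) and set 2 (green), with filled points for adjusted p under 0.05. Set 2 has no filled point, and the filled points of set 1 in the comparisons with Sa rest on 1 library, except that of Cdh17 in A10-FMT.

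In set 2 limma called none of the 10 genes in the 5 comparisons. At an unadjusted p under 0.05 there were 0 genes after Con-FMT, 1 after A10-FMT and 2 after A100-FMT against Sa, and 1 each in A10-FMT and A100-FMT against Con-FMT. The background of genes called at an adjusted p under 0.05 was low too. It was 0.0353%, 0.423% and 0.0353% against Sa and 0.379% and 0% against Con-FMT. Here and below, no share of the tested genes is given at the unadjusted threshold, so counts at that threshold have no background beside them. In Con-FMT all 10 log2 differences from Sa were below 0 (-0.16 to -0.03, median -0.08, where the median tested gene had -0.01), and in A100-FMT all 10 were below 0 as well (-0.27 to -0.01, median -0.11, where the median tested gene had 0.03). The comparisons share the Sa libraries. In 6 of the 10 genes (Cdh1, Cdh17, Ctnna1, Ctnnb1, Dsg2 and Dsp) all Con-FMT libraries were below all Sa libraries, which held for 10.9% of the tested genes. The 95% intervals in set 2 ran from -0.48 to 0.32 over the 10 genes and 5 comparisons. Cdh17 was called lower in set 2 in some alternatives. Against Sa this was so with the column of the description (adjusted p = 0.0174 for A10-FMT and 0.00817 for A100-FMT), when Sa replicate 3 of set 1 was left out (0.0127 and 0.0103) and with adjustment for GC content and length (0.0112 and 0.0169). The column of the description and the left-out library bear on set 2 because all groups shared 1 estimate of the spread. The adjustment for GC content and length also changed the values of set 2 themselves.

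The difference between the sets in the effect of A100-FMT against Sa was called for 7 genes, where 26.8% of the tested genes were called, and that of Con-FMT for 0 (8 at an unadjusted p under 0.05), where 0.00882% were called. Both use Sa of set 1. With the column of the description, the A100-FMT difference was called for Cdh17 (-0.40, adjusted p = 0.00207) and Dsc2 (-0.34, adjusted p = 0.0131), over ranges of adjusted p of 6.82e-07 to 0.200 and 1.74e-07 to 0.200. For A100-FMT against Con-FMT it was called for 0 genes (1 at an unadjusted p under 0.05), where 0% of the tested genes were called.

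In A100-FMT against Con-FMT of set 1, none of the 10 genes was called (limma, 0 called and 0 at an unadjusted p under 0.05), where 0.406% of the tested genes were called. The intervals there ran from -0.38 to 0.30. Averaged over both sets, 0 of the 10 genes were called in the 5 comparisons, with 0.75%, 0.132%, 0.891%, 0% and 0.123% of the tested genes called. At an unadjusted p under 0.05 there were 2, 2 and 2 of the 10 genes against Sa and 1 and 0 against Con-FMT. Between the sets, over all treatments, Dsp was higher in set 2 by 0.15 (SE 0.0495, adjusted p = 0.0499), the only call where 13.3% of the tested genes were called, and no gene was called there in 7 of the 8 alternatives that kept all libraries nor without any 1 of 19 libraries, Sa replicate 3 of set 1 among them.

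Other genes of the pathways were counted from lists chosen for what the proteins do. Of 30 tested genes of the wider adherens junction, 7 were called lower and 2 higher in A10-FMT than in Con-FMT of set 1, where 11.5% and 5.2% of all tested genes were, and 0 were called in set 2. Iqgap1, a scaffold that binds actin, E-cadherin and β-catenin, was lower (-0.38, adjusted p = 0.00242), as was Wasf2, which drives actin branching (-0.28, adjusted p = 0.00214). Actn4, an actin crosslinker and with 318 FPKM the highest of the list, was higher (0.19, adjusted p = 0.0383). Vasp (-0.14), Lima1 (-0.06) and Ssx2ip (-0.21) were not called. Among 6 tested genes listed with the wider desmosome, Pkp1 was lower (-0.55, adjusted p = 0.00499), whereas Perp (0.12), Pkp3 (0.10) and Evpl (-0.10) were not called. Epcam (0.05), on that list but used above as a marker of epithelium in general, was not called either. Of 5 tested keratins, to whose filaments desmosomes attach, Krt20 of the upper villus was higher (0.47, adjusted p = 0.00695). Krt8 (0.13), Krt19 (0.03) and Krt7 (0.13) were not called.

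Ctnnb1 itself was not called in that comparison (-0.00473, 95% interval -0.15 to 0.14), while 7 of 21 tested targets and partners of β-catenin were called lower in A10-FMT of set 1 and 0 higher, with a median of -0.27. Of all tested genes, 11.5% were called lower there and the median was -0.08. They included Sox9 (-0.49, adjusted p = 0.00327), Ephb2 (-0.37, adjusted p = 0.00351) and Myc (-0.37, adjusted p = 0.00774), which are expressed in crypts. Csnk1a1 (-0.14), Ccnd1 (-0.27) and Tcf7l2 (-0.000967) were not called. In set 2 none of the 21 was called (median 0.13). Of 14 tested regulators and repressors of cadherins, 4 were called lower and 2 higher in A10-FMT of set 1, beside 11.5% and 5.2% of all tested genes. Klf4, a factor of differentiated epithelium that activates Cdh1, was higher (0.61, adjusted p = 0.00259), as was Numb (0.25, adjusted p = 0.0170). Esrp2, a splicing regulator of epithelial cells, was lower (-0.38, adjusted p = 0.00114), as was Hnf4a (-0.15, adjusted p = 0.0301), while Cdx1 (-0.14) and Cdx2 (-0.05) were not called. The enterocyte and crypt markers given above also differed in this comparison. The crypt list shares Ascl2 and Lgr5 with the list of β-catenin targets, and the relation of the markers to these lists was not tested.

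The genes followed Cdh1 to different degrees. Over the 22 libraries without Sa replicate 3 of set 1, the Pearson coefficient of log2 values with Cdh1 was 0.845 for Dsg2, 0.799 for Dsp, 0.759 for Dsc2, 0.662 for Ctnnd1, 0.418 for Ctnnb1, 0.329 for Pkp2, 0.156 for Ctnna1, 0.153 for Jup and -0.0397 for Cdh17. Cdh17 was closest to Ctnna1 among the 10 genes (0.684). These are descriptions over libraries of 8 groups. Among all tested genes, over 23 libraries, Cdh1 was most like Neo1 (0.920), 2610507B11Rik (0.902) and Acvr1b (0.896), and Cdh17 was most like Enpep (0.958), a brush-border peptidase, Heph (0.942), which acts in iron export, and Iqgap2 (0.939). With the same measure Dsg2 was closest to Sptbn1 (0.966), Dsc2 to Ptbp3 (0.978), Dsp to Galnt4 (0.951), Ctnna1 to Pdcd6ip (0.930), Ctnnb1 to Tmem87b (0.918), Ctnnd1 to Glyr1 (0.839), Jup to Dctn1 (0.901) and Pkp2 to Hsd17b7 (0.830). The 1 library mattered most for Jup and Ctnnb1, whose coefficients fell to 0.662 with Dctn1 and to 0.698 with Tmem87b without it.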

How the data were processed

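Per the authors' methods and the labels, RNA from mouse small intestine was extracted with TRIzol and sequenced on an Illumina HiSeq, and reads were assigned to genes of mm10. The deposited values are FPKM per gene and library, made by the authors, in 1 table. The aligner and counter were not given in the sources used here. FPKM summed to 556466 to 667957 per library and 16.2% of values were 0. No counts were used, so the depth is unknown and no counting interval was computed. Of 17842 NCBI Gene numbers, 17725 matched a symbol.

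The 11337 genes whose mean reached 1 FPKM were tested as log2(FPKM + 1) with limma 3.58.1 in R 4.3.3, with 8 group means, a trended empirical Bayes variance and Benjamini-Hochberg adjustment at 0.05. A fold change on this scale is understated for low genes. The fit gave 22 comparisons and was tested on simulated data. Tests of differences were two-sided. The members and gene lists were chosen with earlier results of these data known. Other named genes were, for each list, the 3 with the highest mean and the 3 with the smallest adjusted p across the groups, and the 3 genes with the highest Pearson coefficient were taken as most alike. The alternatives were another pseudocount (0.1), all genes above 0, quantile normalization, trimmed-mean scaling, array quality weights, fits of single comparisons, blocks by replicate number, the column of the description, and each library left out. After the data had been seen, a loess adjustment (span 0.3) for GC content and length was added. Positions are RefSeq on GRCm38 and transcripts GENCODE M21. Python 3.11.15 with pandas 2.3.3 was used.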

Additional observations from a re-analysis of the deposited data

Results flagged for a closer look

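The effects of treatment differed between the sets for 12 combinations of gene and comparison by a test of the difference itself (limma, Benjamini-Hochberg adjusted p under 0.05). Of all tested genes, this test called 20.8% for A10-FMT against Con-FMT, 28.4% for A10-FMT against Sa and 26.8% for A100-FMT against Sa. Each value below is the log2 effect in set 2 minus that in set 1. In A10-FMT against Con-FMT, which uses no Sa library, it was 0.31 for Cdh1, 0.44 for Dsp and -0.29 for Cdh17. In A10-FMT against Sa it was -0.61 for Cdh17 and -0.27 for Ctnna1. In A100-FMT against Sa it was -0.22 for Cdh1, -0.55 for Cdh17, -0.29 for Ctnnb1, 0.31 for Jup, -0.61 for Dsg2, -0.73 for Dsc2 and -0.41 for Dsp. Without Sa replicate 3 of set 1, the differences against Sa that were called were those of Cdh17, with -0.44 (adjusted p = 0.00178) in A10-FMT and -0.38 (adjusted p = 0.0217) in A100-FMT. The labels do not say what the sets are, so set and any batch cannot be told apart.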

How the results depend on the processing

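Single-gene calls against Sa of set 1 changed most. Cdh17 in Con-FMT became -0.0553 with adjustment for GC content and length, Jup in Con-FMT became 0.000921 with the column of the description, and Dsc2 in A10-FMT became -0.00372 without Sa replicate 3 and 0.79 without Sa replicate 1. Over the named single-gene results, alternatives that kept all libraries left 159 values past the threshold and 100 not past it, and those that left out 1 library left 532 past and 134 not past it, all in the main direction. These counts leave out values of the opposite sign, of which there were 2 with all libraries kept and 1 with a library left out. The cause was not tested.

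The number of the 10 genes called moved as follows in set 1. Except where printed above, the share of all tested genes is not given beside the counts of this section. The counts therefore show how calls depend on the settings, not a trait of the 10 genes. For Con-FMT against Sa it was 3 with all genes above 0, and 0 with groups compared alone, array quality weights, the column of the description and the GC and length adjustment. For A10-FMT against Sa it was 0 with groups alone, 0 with weights and 2 with the column of the description. For A100-FMT against Sa it was 0 with groups alone, weights and the column of the description and 3 with the GC and length adjustment. For A10-FMT against Con-FMT it was 4 with weights and 4 with the column of the description. In set 2, A10-FMT against Sa had 1 with groups alone, weights, the column of the description and the GC and length adjustment. A100-FMT against Sa had 4 with weights, and 1 with the column of the description and with the GC and length adjustment. Against Con-FMT, A10-FMT had 1 with the GC and length adjustment and A100-FMT 1 with weights and 1 with the column of the description. Over both sets A100-FMT against Sa had 2 with the GC and length adjustment.

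For differences between the sets, A10-FMT against Sa had 5 with trimmed-mean scaling, 1 with groups alone, 0 with weights, 1 with the column of the description and 5 with the GC and length adjustment. A100-FMT against Sa had 0 with groups alone, 0 with weights, 2 with the column of the description and 4 with the GC and length adjustment. A10-FMT against Con-FMT had 1 with trimmed-mean scaling and A100-FMT against Con-FMT 1 with weights. Set 2 against set 1 had 0 with a pseudocount of 0.1, all genes above 0, quantile normalization, trimmed-mean scaling, the replicate block, weights and the column of the description.

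Same-numbered libraries did not deviate together (median correlation -0.0093 in set 1, where 4 of 15 pairs exceeded 0.1, and 0.0347 in set 2, where 6 of 18 did). Nor did libraries of 1 treatment with the same number in both sets (median -0.0198, 2 of 11 pairs above 0.1, against 0.0351 and 7 of 22 for other numbers). With the replicate block, 2 genes were called across the 8 groups. There were 8, 4 and 6 against Sa of set 1 and 2 in A10-FMT against Con-FMT of set 1. The shares of all tested genes with this block are not given here.

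Leaving out 1 library gave these ranges of called genes. In set 1 they were 0 to 9 for Con-FMT, 1 to 7 for A10-FMT and 0 to 7 for A100-FMT against Sa, and 1 to 4 for A10-FMT and 0 to 0 for A100-FMT against Con-FMT. In set 2 they were 0 to 0, 0 to 1 and 0 to 1 against Sa and 0 to 0 and 0 to 1 against Con-FMT. Over both sets they were 0 to 7, 0 to 8 and 0 to 5 against Sa and 0 to 0 and 0 to 0 against Con-FMT. For differences between the sets they were 0 to 9, 1 to 7 and 1 to 8 against Sa and 1 to 3 and 0 to 0 against Con-FMT. Set 2 against set 1 gave 0 to 7 and the test across groups 2 to 9. Depth is unknown, and with 2 or 3 libraries a group small differences were not detectable.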
